A study of Homo sapiens with 36 samples.

Results

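MALAT1, NEAT1, GAS5, SNHG1, SNHG12, MIR31HG, UCA1, HOTAIR, PVT1 and H19 are long noncoding RNAs that are abundant in many cells or often studied in cancer. They were taken by name from the gene count table, in which these 10 are among 58735 genes, and each name was found once. The table holds counts for 36 RNA-seq libraries, 3 in each of 12 groups, from 3 established human lines (Cal27, HN4 and HN6), all derived from squamous carcinoma of the head and neck. For an IL-8 experiment, cells of every line were given recombinant human IL-8 (100 ng/ml, 24 h) or nothing, to learn how IL-8 acts where its receptor CXCR1 differs in amount. For a plasmid experiment, cells of every line received an ACLY plasmid (ACLY makes acetyl-CoA from citrate) or the empty vector, to learn what lies downstream of ACLY. All cells grew in medium with exosome-depleted serum. Polyadenylated RNA was captured with poly-T beads and primed with random hexamers. The groups are called IL-8, untreated, ACLY and vector within each line. The labels number the replicates of a group but do not say whether they are separate cultures. All p-values therefore rest on the spread among these libraries, which may be technical.

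Long noncoding RNAs are transcribed and often spliced like messenger RNAs but carry no long reading frame. MALAT1 and NEAT1 stay in the nucleus: MALAT1 gathers in nuclear speckles beside splicing factors, and the long form of NEAT1 is the scaffold of paraspeckles. GAS5, SNHG1 and SNHG12 are host genes whose introns are cut into small nucleolar RNAs (snoRNAs), while their spliced remainder is translated poorly and removed by nonsense-mediated decay. MIR31HG spans the gene of miR-31, HOTAIR lies in the HOXC cluster and is known for its link to Polycomb repression, PVT1 neighbours MYC, UCA1 was named for urothelial cancer, and H19 is an imprinted fetal RNA that carries miR-675.

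The library totals ran from 16570601 to 20232735 counts, so 3 counts, the limit that a count of 0 allows, correspond to 0.148 to 0.181 CPM, counts per 1000000 counts. Those limits cover counting error only. ACLY went with the labels in HN6 and Cal27, whereas the HN4 libraries labelled ACLY held 5645 to 6447 ACLY reads and those labelled vector held 25343 to 29445. The HN4 plasmid groups are therefore called by their labels, and the direction of each HN4 plasmid value rests on labels that ACLY goes against. Of 11 genes read in HN4 and hardly in untreated HN6 and Cal27, the median level relative to untreated HN4 was 0.301 to 0.331 in the 3 Cal27 libraries with IL-8 and 0.557 to 0.569 in the 3 with the ACLY plasmid, against 0 in the Cal27 untreated and vector groups. All 3 libraries of each group share this, so no Cal27 treatment result can be given without it. The mitochondrial share of counts was low in 2 libraries: 1.06% in Cal27 IL-8 replicate 3, where its group otherwise had 3.37% and 3.59%, and 2.15% in replicate 3 of HN4 labelled ACLY, where its group otherwise had 5.71% and 6.03%. The 9 markers of squamous epithelium summed to between 1136 and 7584 CPM, with KRT14 at 0 in 9 libraries. The leukocyte markers summed to at most 1.37 CPM, with PTPRC at 0 in 27 libraries, and the fibroblast markers DCN and PDGFRA were at 0 in 35 and 32. CDH5, an endothelial marker, was read in all libraries at 3.25 to 23.3 CPM and COL1A1, a fibroblast marker, at 3.62 to 47.3 CPM. In bulk RNA, fewer cells that hold a transcript and less of it per cell cannot be told apart.

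The table counts the short and the long form of NEAT1 as 1 gene (chromosome 11, 65422774 to 65445540, plus strand, hg38), and only the short form ends at a standard polyadenylation signal. The last 60 bases of each form in GENCODE 29 are printed to show this, with the signal AATAAA in capitals in the short form, whose transcript has 2994 bases, and the A-rich end encoded in the genome in capitals in the long form, whose transcript has 22743 bases; both lie on the plus strand.
NEAT1-208, chr11:65426454-65426513: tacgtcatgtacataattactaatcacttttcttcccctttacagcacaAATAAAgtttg
NEAT1-202, chr11:65445481-65445540: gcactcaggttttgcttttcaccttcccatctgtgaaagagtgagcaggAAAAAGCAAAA
The long form has no A tail added after cleavage, and how fully poly-T beads hold it is not known here, so a level of NEAT1 is a level of both forms in unknown proportion. MALAT1 (chromosome 11, 65497688 to 65506516, plus strand) likewise matures without a poly-A tail and ends in an A-rich stretch.

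Host genes of snoRNAs often start with a run of pyrimidines (C and T), as do the messenger RNAs of ribosomal proteins, whose translation such a start governs. The first bases of the GENCODE 29 transcript with the longest such run are given for the 3 hosts, all on the minus strand, with the run in capitals, up to 30 bases or the end of the first exon.
GAS5-210, chr1:173867960-173867989: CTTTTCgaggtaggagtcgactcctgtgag
SNHG1-204, chr11:62855865-62855881: TTTTTCTactgctcgtg
SNHG12-202, chr1:28581844-28581873: CCTTTCTCCCCgccgcattcccggtgtcga
The runs have 6, 7 and 11 bases. A run of at least 6 opens 6 of 29 GENCODE transcripts of GAS5, 2 of 25 of SNHG1 and 5 of 17 of SNHG12, against 2.96% of all 206694 transcripts. These starts were picked for their runs, so their length is a description.

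All members except H19 were read in all 36 libraries. Their order of abundance changed from line to line. Per kilobase of the table's gene length, UCA1 ranked highest of the 10 in untreated HN4 (69.5 CPM per kb), SNHG1 in untreated HN6 (66.95 CPM per kb) and NEAT1 in untreated Cal27 (155 CPM per kb). H19 was lowest in all 3, at 0.042, 0.147 and 0.202 CPM per kb in untreated HN4, HN6 and Cal27. Over the 12 group means the highest level was 29.6 times the lowest for MIR31HG and 29.3 times for NEAT1, and 2.38 times for GAS5, the member that varied least. Without a stated strand setting, reads of overlapping genes on opposite strands cannot be told apart. Of the exon bases, 40.7% of MIR31HG (with the pseudogene IFNWP19), 13.6% of UCA1 (mainly with LINC01764) and 15.3% of SNHG1 (with its own snoRNAs) lie in another gene, and at most 9.54% of each other member. Together the 10 took 0.436% to 0.546% of the counts in the untreated and vector libraries of Cal27 and at most 0.14% in any HN4 or HN6 library.

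**Figure D1:**
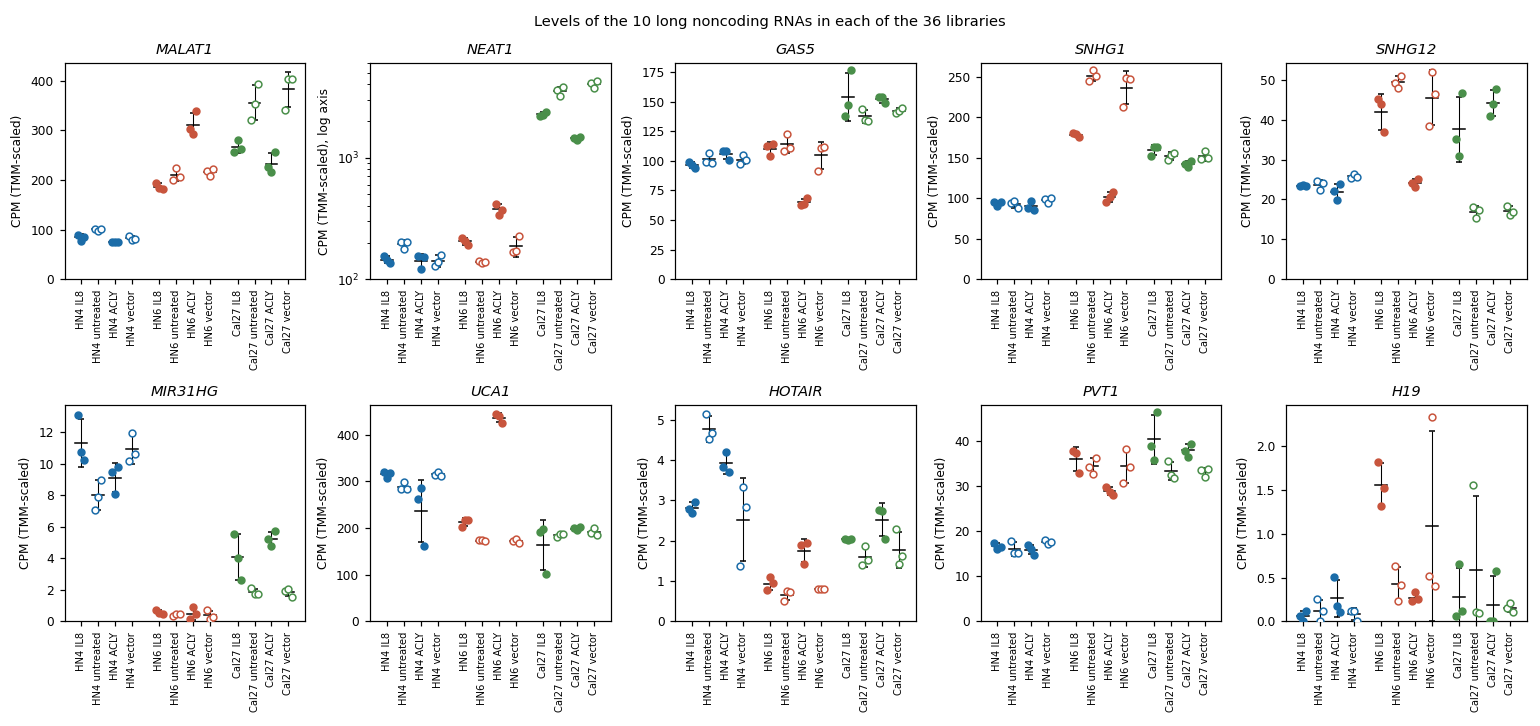
Level of each member in every library as TMM-scaled CPM (the NEAT1 axis is logarithmic), with filled points for IL-8 and ACLY plasmid libraries, open points for untreated and vector libraries, and the mean ± SD of 3 libraries as a bar, blue for HN4, red for HN6 and green for Cal27. All Cal27 libraries lie above all HN4 and HN6 libraries for NEAT1, and MIR31HG is highest in HN4.

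The order of the 12 group means differed among members. NEAT1 ran from 4033 ± 247 CPM in the Cal27 vector group, whose range overlapped that of untreated Cal27 (3532 ± 279.9), over Cal27 with IL-8 (2284 ± 84.6), Cal27 with ACLY (1443 ± 37.99) and HN6 with ACLY (375 ± 39.8), each apart from its neighbours, to 7 groups of HN6 and HN4 between 206 ± 13.2 and 138 ± 3.02 CPM (SD, n = 3 each). MALAT1 was highest in the Cal27 vector group (383 ± 35.5 CPM), untreated Cal27 and HN6 with ACLY, which overlapped in that order, and the 4 HN4 groups were lowest, down to 74.8 ± 0.461 CPM in the libraries labelled ACLY. GAS5 lay at 154 ± 20.2 CPM in Cal27 with IL-8, with the other Cal27 groups down to 137 ± 5.61 CPM next. The HN6 and HN4 groups of GAS5 from 114 ± 7.6 to 96.6 ± 2.34 CPM all overlapped their neighbours in the order, and HN6 with ACLY stood apart below them at 64.8 ± 3.05 CPM. SNHG1 was highest in untreated HN6 (251 ± 6.92 CPM) and in its vector group, next in HN6 with IL-8, then in the 4 Cal27 groups (159.5 ± 6.44 to 142 ± 3.89 CPM), and HN6 with ACLY overlapped the HN4 groups at the low end.

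SNHG12 put 3 HN6 groups, Cal27 with ACLY and Cal27 with IL-8 in 1 overlapping run from 49.4 ± 1.49 to 37.6 ± 8.16 CPM, and its lowest groups were the Cal27 vector and untreated ones, at 17.2 ± 1.2 and 16.98 ± 1.38 CPM. MIR31HG kept the lines apart, with HN4 at 11.3 ± 1.52 to 8.002 ± 0.954 CPM, Cal27 at 5.23 ± 0.457 to 1.84 ± 0.254 CPM and HN6 at 0.579 ± 0.126 to 0.383 ± 0.273 CPM. UCA1 was highest in HN6 with ACLY (437 ± 9.92 CPM), apart from the 4 HN4 groups (315 ± 3.81 to 237 ± 65.9 CPM), and lowest in Cal27 with IL-8 (164 ± 53.4 CPM), whose libraries spread widely. HOTAIR ran from 4.77 ± 0.32 CPM in untreated HN4 to 0.66 ± 0.127 CPM in untreated HN6. PVT1 lay between 40.4 ± 5.43 and 33.2 ± 0.958 CPM in all Cal27 groups and 3 HN6 groups, which overlapped, at 28.9 ± 0.917 CPM in HN6 with ACLY, and at 17.7 ± 0.453 to 15.9 ± 1.05 CPM in HN4.

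Between the lines most members differed. In the edgeR quasi-likelihood fit with Benjamini-Hochberg adjustment over all genes tested, untreated HN6 and untreated HN4 differed in 8 of 10 members, 4 higher and 4 lower in HN6, where 67.2% of all 18398 genes passed. Untreated Cal27 differed from untreated HN4 in 9 (5 higher, 4 lower; 63.6% of all genes) and from untreated HN6 in 7 (5 higher, 2 lower; 68.4% of all genes). In the vector libraries, with 9 members tested, the counts were 8 for HN6 against HN4 (69.3% of all genes), 8 for Cal27 against HN4 (71.8%) and 7 for Cal27 against HN6 (73.3%). Most genes of the lines differed at this depth, so a share of 7 to 9 of 10 lies near that of all genes, and the counts alone set the members apart from no others.

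NEAT1 was the member that set Cal27 apart. Untreated Cal27 libraries held 3578, 3232 and 3786 CPM, untreated HN6 libraries 141, 135 and 138 CPM, and untreated HN4 libraries 201, 178 and 204 CPM. The lowest Cal27 library lay far above every HN6 and HN4 library. Per kilobase of gene length NEAT1 ranked 200th of all genes in untreated Cal27, 6674th in HN6 and 5225th in HN4. By mean CPM, which does not allow for the length of this long gene, its ranks were 8, 1726 and 909. The fitted ratio was 18.2 for Cal27 over HN4 (edgeR adjusted p = 1.82e-16) and 26.6 for Cal27 over HN6 (edgeR adjusted p = 8.14e-17). The vector libraries gave 28.8 and 21.9 for the same pairs of lines. Between HN6 and HN4 the direction depended on the experiment: the edgeR log2 difference was -0.54 ± 0.083 (SE) in untreated cells (adjusted p = 1.48e-05) and 0.40 ± 0.134 in the vector libraries (adjusted p = 0.0177), and the second was not called without HN6 vector replicate 3 (0.24, adjusted p = 0.0798) or without HN4 vector replicate 1 (0.33, adjusted p = 0.0698).

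MALAT1 was graded over the lines. Untreated Cal27 held 322, 352 and 393 CPM, untreated HN6 200.1, 224 and 206 CPM, and untreated HN4 102, 97.3 and 101 CPM, with no overlap between lines. The edgeR log2 difference was 1.83 for Cal27 over HN4, 0.81 for Cal27 over HN6 and 1.02 for HN6 over HN4 (adjusted p = 1.53e-12, 7.02e-08 and 3.82e-09). The vector libraries gave 2.23, 0.85 and 1.38 in that order. Of 10 nuclear speckle proteins, all 10 were higher in untreated HN6 than in untreated HN4, and between untreated Cal27 and untreated HN4 2 were higher and 4 lower in Cal27. Between untreated Cal27 and untreated HN6, 0 were higher and 9 lower in Cal27, the other way from MALAT1. Of all genes 32.4% passed higher in HN6 than in HN4, and 32.2% higher and 31.4% lower in Cal27 than in HN4. Between Cal27 and HN6 35.3% passed higher and 33.1% lower in Cal27.

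The order of the lines differed among the host genes. SNHG1 stood at 147, 154 and 156 CPM in untreated Cal27, 245, 258 and 251 CPM in untreated HN6 and 93.96, 96.9 and 87.4 CPM in untreated HN4, so HN6 was highest and HN4 lowest. SNHG12 had 18.2, 15.5 and 17.3 CPM in untreated Cal27, 49.2, 48.1 and 51.04 CPM in untreated HN6 and 24.5, 22.4 and 24.1 CPM in untreated HN4, so here Cal27 was lowest. GAS5 was 1.36 times as high in Cal27 as in HN4 (edgeR adjusted p = 0.000411), and its difference between HN6 and HN4 did not pass (log2 0.12, adjusted p = 0.256; 0.0354 without Cal27 IL-8 replicate 3). Of 25 other snoRNA host genes tested, 1 was higher and 15 lower in untreated Cal27 than in untreated HN4, where 32.2% of all genes passed higher and 31.4% lower.

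MIR31HG and HOTAIR were highest in HN4 and lowest in HN6. MIR31HG (chromosome 9, 21455642 to 21559669, minus strand) had 2.09, 1.76 and 1.72 CPM in untreated Cal27, 0.343, 0.459 and 0.48 CPM in untreated HN6, and 7.09, 7.92 and 8.995 CPM in untreated HN4, and none of the lines overlapped. The edgeR log2 difference was -4.25 ± 0.268 for HN6 over HN4 and -2.10 ± 0.206 for Cal27 over HN4 (adjusted p = 1.58e-10 and 6.35e-08). The mature miRNA carried by the MIR31HG locus, hsa-miR-31-5p (RefSeq, GRCh38.p14, minus strand), is printed because it is the product the host is named for, with its seed, bases 2 to 8, in capitals.
hsa-miR-31-5p, chr9:21512158-21512178: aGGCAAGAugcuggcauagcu
Poly-A selected RNA-seq does not measure the miRNA itself, so these levels are of the host alone.

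HOTAIR (chromosome 12, 53962308 to 53974956, minus strand) stood at 1.39, 1.86 and 1.52 CPM in untreated Cal27, 0.514, 0.746 and 0.72 CPM in untreated HN6 and 5.13, 4.52 and 4.67 CPM in untreated HN4. The 3 lines did not overlap, and the edgeR log2 difference was -2.89 for HN6 and -1.58 for Cal27, both over HN4 (adjusted p = 2.68e-10 and 1.17e-07). In the vector libraries, where HN4 spread over 1.37, 3.34 and 2.85 CPM, the difference of Cal27 from HN4 did not pass (log2 -0.50, edgeR adjusted p = 0.0858), while it was called without HN4 vector replicate 1 (-0.79, adjusted p = 0.00586), without Cal27 vector replicate 1 (-0.73, adjusted p = 0.0329) and with all 36 libraries in 1 fit (adjusted p = 0.0451). Of 8 tested protein-coding neighbours of HOTAIR, 8 were lower in untreated HN6 than in untreated HN4, where 34.7% of all genes passed lower. In untreated Cal27 6 were lower and 0 higher than in untreated HN4, where 31.4% of all genes passed lower. HOXC11 and HOXC10, homeobox genes of the same cluster, had 1.77 ± 0.234 and 11.3 ± 1.46 CPM in untreated Cal27. In untreated HN4 they had 5.77 ± 0.633 and 20.7 ± 1.23 CPM (SD, n = 3). HOXC11 overlaps the span of HOTAIR on the other strand.

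UCA1 was highest and PVT1 lowest in HN4. UCA1 (chromosome 19, 15828206 to 15836326, plus strand) had 186 ± 3.48 CPM in untreated Cal27, 173 ± 1.41 CPM in untreated HN6 and 289 ± 9.29 CPM in untreated HN4 (SD, n = 3). The difference of Cal27 from HN6 did not pass (log2 0.16, edgeR adjusted p = 0.344), while without Cal27 IL-8 replicate 3, which enters the spread of this fit, the adjusted p was 0.00172. PVT1 (chromosome 8, 127794533 to 128101253, plus strand) stood at 33.3 ± 1.96, 34.5 ± 1.76 and 16.002 ± 1.56 CPM in untreated Cal27, HN6 and HN4, 2.09 times as high in Cal27 as in HN4 (edgeR adjusted p = 1.39e-07).

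**Figure D2:**
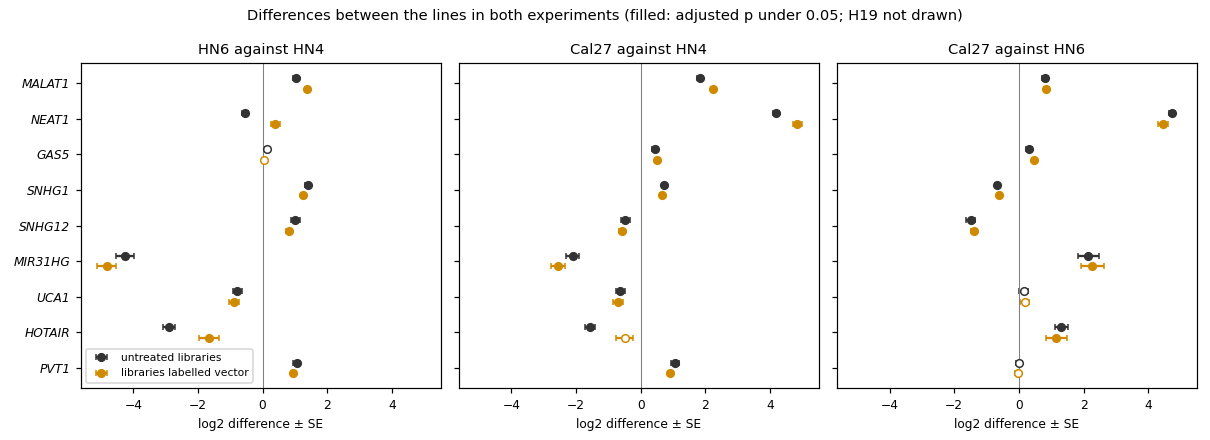
Fitted log2 difference between lines for 9 members, with the SE as a bar, in untreated libraries (dark) and in libraries labelled vector (orange), filled where the edgeR adjusted p was under 0.05. The 2 experiments give the same side for all but NEAT1 between HN6 and HN4 and PVT1, near 0, between Cal27 and HN6.

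With IL-8 the members that moved differed among the lines. In HN4, 3 of 10 passed, all lower (14% of all genes passed, 6.89% higher and 7.09% lower), in HN6 2 passed, 1 higher and 1 lower (15.4% of all genes, 7.61% higher and 7.81% lower), and in Cal27 4 passed, 2 higher and 2 lower (39.4% of all genes). The median log2 change of the 10 was -0.07, 0.18 and 0.10 in HN4, HN6 and Cal27, and that of all genes tested -0.01, 0.00 and 0.00. These medians include H19, whose fitted change supports nothing for the reason given below, so no shift of the members is read from them. With the 6 libraries of the line alone, which brings another estimate of the spread, 5 members passed in HN4 and 6 in HN6. H19 is among the 6 of HN6, but it passed the filter through the group where it is high, so its call supports nothing. The share of all genes passing with a line alone is not given here, so these counts do not set the members apart. Cal27 IL-8 replicate 3 enters the spread of every comparison of this fit: without it 30.3% of all genes passed in HN4, 32.7% in HN6 and 41.7% in Cal27.

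NEAT1 was lower with IL-8 in HN4 and Cal27 and higher in HN6. HN4 held 155, 143 and 136 CPM with IL-8 and 201, 178 and 204 CPM untreated (log2 change -0.45 ± 0.0829, SE; edgeR adjusted p = 0.00154). HN6 held 219, 206 and 192 CPM with IL-8 and 141, 135 and 138 CPM untreated (1.49-fold; edgeR adjusted p = 0.000158). Cal27 held 2218, 2254 and 2379 CPM with IL-8 and 3578, 3232 and 3786 CPM untreated (-0.65 ± 0.082; edgeR adjusted p = 9.47e-06). In none of the lines did the groups overlap, and the response differed among the lines (edgeR interaction, adjusted p = 5.98e-07). In the same comparisons, 3, 1 and 7 of 12 paraspeckle proteins rose in HN4, HN6 and Cal27 and 0, 3 and 1 fell. Of all genes 6.89%, 7.61% and 22.7% passed higher and 7.09%, 7.81% and 16.7% lower. Without Cal27 IL-8 replicate 3 it was 9, 1 and 9 paraspeckle proteins that rose and 0, 6 and 1 that fell. In that setting 30.3%, 32.7% and 41.7% of all genes passed in either direction. SFPQ, an essential paraspeckle protein, had 312 ± 1.37 CPM with IL-8 and 242 ± 10.6 CPM untreated in HN4, 505 ± 6.69 and 574 ± 12.3 CPM in HN6, and 245 ± 18.3 and 152 ± 3.52 CPM in Cal27 (SD, n = 3), and all 3 changes passed (edgeR adjusted p = 0.000885, 0.0358 and 1.15e-07). In each line SFPQ moved the other way from NEAT1. NEAT1 in Cal27 with IL-8 lies between untreated Cal27 and untreated HN4, in libraries where genes otherwise read in HN4 stood at about 0.313 of their HN4 level; the part of that signal in the Cal27 changes was not tested.

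MALAT1 was lower with IL-8 in HN4 and Cal27. Cal27 had 257, 280.0 and 263 CPM with IL-8 and 322, 352 and 393 CPM untreated (log2 change -0.44, edgeR adjusted p = 0.000396; 0.0531 with the Cal27 libraries alone). HN4 had 89.1, 77.6 and 85.8 CPM with IL-8 and 102, 97.3 and 101 CPM untreated (-0.28, edgeR adjusted p = 0.029). The HN4 groups did not overlap, but the call was lost with no filter on low counts (adjusted p = 0.101) and in 5 of the 6 fits that left out an HN4 library, at adjusted p between 0.0559 and 0.154. HN6 had 187 ± 6.27 CPM with IL-8 and 210.3 ± 12.7 CPM untreated, which did not pass (-0.17, edgeR adjusted p = 0.165), and without Cal27 IL-8 replicate 3 in the fit the adjusted p was 0.0363. The endothelial markers PECAM1, CDH5 and VWF summed to 15.4 to 18.9 CPM in Cal27 with IL-8 against 27.0 to 27.6 CPM untreated, to 11.9 to 13.1 CPM in HN6 with IL-8 against 9.18 to 11.8 CPM untreated, and to 3.76 to 4.99 CPM in HN4 with IL-8 against 4.27 to 4.93 CPM untreated. The sum was thus lower beside MALAT1 in Cal27, higher in HN6 and overlapping in HN4, and its part was not tested. The squamous markers, with 1 of 9 higher and 5 lower in Cal27, summed to 5293 to 7086 CPM with IL-8 against 6729 to 7584 CPM untreated. Of all genes 22.7% passed higher and 16.7% lower there. A difference of the MALAT1 response among lines was not shown (interaction, adjusted p = 0.154).

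Of the host genes, SNHG1 fell in HN6 and SNHG12 rose in Cal27. SNHG1 had 181, 179 and 176 CPM in HN6 with IL-8 and 245, 258 and 251 CPM untreated, with no overlap (log2 change -0.49 ± 0.0642; edgeR adjusted p = 5.97e-05). SNHG12 had 35.1, 31.01 and 46.7 CPM in Cal27 with IL-8 and 18.2, 15.5 and 17.3 CPM untreated, also without overlap (2.19-fold; edgeR adjusted p = 4.06e-06). The library of low mitochondrial share, replicate 3, was the highest of SNHG12, and without it the change was 0.92 with adjusted p = 1.16e-10. SNHG12 in HN6 was called lower only with the HN6 libraries alone and without Cal27 IL-8 replicate 3 (-0.22 and -0.24, adjusted p = 0.0201 and 0.0114). GAS5 passed in none of the lines, with log2 changes of -0.10, -0.05 and 0.15 in HN4, HN6 and Cal27. In Cal27 it passed without IL-8 replicate 1 (0.24, edgeR adjusted p = 0.0495), whereas without replicate 3, its highest library, the change was 0.01 (edgeR adjusted p = 0.889). The interaction passed for SNHG1 and SNHG12 (edgeR adjusted p = 0.000242 and 3.11e-05) and not for GAS5 (0.254).

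Of 25 other snoRNA host genes tested, 17 rose and 1 fell in Cal27 with IL-8, where 22.7% of all genes passed higher and 16.7% lower. In HN4 and in HN6, where 14% and 15.4% of all genes passed, 1 rose and 3 fell. Without Cal27 IL-8 replicate 3 it was 1 and 6 in HN4 and 5 and 5 in HN6, where 30.3% and 32.7% of all genes passed. SNHG19 had 19.1, 21.7 and 64.8 CPM in Cal27 with IL-8 and 10.2, 7.6 and 10.75 CPM untreated (log2 change 1.88, edgeR adjusted p = 0.000364). Its highest library is again replicate 3, without which the change was 1.05 (edgeR adjusted p = 9.69e-08). SNHG14, the host of the imprinted snoRNA clusters on chromosome 15, had 12.4 ± 2.24 CPM with IL-8 and 0.116 ± 0.123 CPM untreated in Cal27 and 52.4 ± 1.07 CPM in untreated HN4. SNHG12 averaged 37.6 ± 8.16 CPM in Cal27 with IL-8, 16.98 ± 1.38 CPM in untreated Cal27 and 23.7 ± 1.16 CPM in untreated HN4. The part of the genes otherwise read in HN4 in these host changes was not tested.

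MIR31HG rose with IL-8 in Cal27, to 5.53, 4.05 and 2.63 CPM against 2.09, 1.76 and 1.72 CPM untreated (2.16-fold; edgeR adjusted p = 0.000734). The groups did not overlap, and HN4, where MIR31HG is highest, held 8.002 ± 0.954 CPM untreated. In HN4 it had 13.1, 10.7 and 10.2 CPM with IL-8 and 7.09, 7.92 and 8.995 CPM untreated, which did not pass (log2 change 0.48, edgeR adjusted p = 0.0801) but did with the HN4 libraries alone (0.47, adjusted p = 0.00174) and without Cal27 IL-8 replicate 3 (0.48, adjusted p = 0.00619). IFNE, an epithelial interferon gene inside the MIR31HG span, was the only protein-coding neighbour with enough reads to test and was called in none of the 6 treatment comparisons.

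HOTAIR fell in HN4 with IL-8, to 2.77, 2.7 and 2.97 CPM against 5.13, 4.52 and 4.67 CPM untreated (log2 change -0.79 ± 0.153; edgeR adjusted p = 0.00236). Every library with IL-8 lay below every untreated one. In HN6 and Cal27 the changes were 0.50 and 0.33 and did not pass (edgeR adjusted p = 0.288 and 0.181), and the interaction passed (adjusted p = 0.000887). Of 8 tested protein-coding neighbours of HOTAIR none passed in HN4. In Cal27, where 22.7% of all genes passed higher, HOXC10, HOXC11 and HOXC12 rose, with HOXC10 at 15.3 ± 1.3 CPM with IL-8 and 11.3 ± 1.46 CPM untreated. HOXC10, HOXC11 and HOTAIR were higher in untreated HN4 than in untreated Cal27. The part of the genes otherwise read in HN4 in these Cal27 changes was not tested.

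UCA1 and PVT1 were not called with IL-8 in any line in the fit of 18 libraries. UCA1 in HN6 had 202, 218 and 217 CPM with IL-8 and 173, 174 and 171 CPM untreated, without overlap (1.23-fold, edgeR adjusted p = 0.179). That p depended on 1 library of another line: in Cal27 with IL-8 UCA1 stood at 191, 198 and 102 CPM, replicate 3 lay far below the others, and this spread enters the estimate for UCA1 in all lines. Without Cal27 IL-8 replicate 3 the HN6 change was 0.30 with adjusted p = 7.19e-07 by edgeR, and with the HN6 libraries alone the adjusted p was 1.59e-05. UCA1 in HN4 had 321, 307 and 317 CPM with IL-8 and 283, 299 and 283 CPM untreated, also without overlap (log2 change 0.10, edgeR adjusted p = 0.711). The HN4 change passed with the HN4 libraries alone (edgeR adjusted p = 0.0419) and not without Cal27 IL-8 replicate 3 (edgeR adjusted p = 0.0603). In Cal27 itself the change was -0.21 (adjusted p = 0.245) with replicate 3 and 0.02 with adjusted p = 0.737 by edgeR without it. PVT1 had 39.005, 35.8 and 46.4 CPM in Cal27 with IL-8 and 35.6, 32.5 and 31.9 CPM untreated (log2 change 0.26, edgeR adjusted p = 0.061), and log2 changes of 0.03 and 0.07 in HN4 and HN6. In Cal27 it was called with all 36 libraries in 1 fit (0.27, adjusted p = 0.0135) and without IL-8 replicate 2 (0.35, adjusted p = 0.015), and was 0.12 without replicate 3 (adjusted p = 0.238).

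With the ACLY plasmid HN6 was the line in which most members moved. There 8 of 9 tested members passed, 4 higher and 4 lower, where 51.6% of all 18556 genes passed. In Cal27 5 passed, 3 higher and 2 lower (63.2% of all genes). Between the HN4 libraries labelled ACLY and those labelled vector 2 passed, 1 higher and 1 lower (38.1% of all genes). The median log2 change of the 9 was 0.36 in HN6, 0.08 in Cal27 and -0.12 in HN4, against 0.04, 0.03 and 0.01 over all genes.

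In HN6 with the plasmid the 2 nuclear RNAs rose. NEAT1 had 418, 339 and 369 CPM with ACLY and 166, 170.1 and 227 CPM with the vector (2.02-fold; edgeR adjusted p = 2.21e-05). MALAT1 had 303, 293 and 338 CPM with ACLY and 217, 208 and 221 CPM with the vector (1.46-fold; edgeR adjusted p = 1.86e-08). Neither overlapped. All 12 paraspeckle proteins fell in HN6, SFPQ to 330.1 ± 7.98 CPM against 521 ± 16.1 CPM (SD, n = 3). Of 10 nuclear speckle proteins 9 fell and 0 rose, SRSF7, a splicing factor, to 141 ± 3.7 CPM against 258 ± 22.1 CPM. Of 7 tested partners and targets of H19 and MALAT1 processing 5 fell and 0 rose, METTL16, which binds the triple helix at the MALAT1 end, to 32.5 ± 1.07 CPM against 59.7 ± 5.8 CPM. Over all genes 26.8% passed higher and 24.9% lower.

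In Cal27 both fell with the plasmid. NEAT1 had 1448, 1402 and 1477 CPM with ACLY and 4094, 3760.4 and 4243 CPM with the vector (log2 change -1.49 ± 0.13; edgeR adjusted p = 2.65e-07). MALAT1 had 226, 215 and 256 CPM with ACLY and 342, 404 and 403 CPM with the vector (-0.73 ± 0.0639; edgeR adjusted p = 2.37e-11). Of the paraspeckle proteins 10 rose and 1 fell, SFPQ to 334 ± 5.5 CPM against 150.5 ± 5.97 CPM, and of the nuclear speckle proteins 8 rose and 1 fell. Of all genes 34.2% passed higher and 29% lower there. HN4 held 194 ± 14.1 CPM of NEAT1 and 100.2 ± 2.55 CPM of MALAT1 untreated, below all Cal27 groups, and genes otherwise read in HN4 stood at about 0.562 of their HN4 level in Cal27 with ACLY; their part in these falls was not tested. Between HN4 libraries labelled ACLY and labelled vector neither RNA passed (NEAT1 log2 0.03, MALAT1 -0.12; edgeR adjusted p = 0.898 and 0.188), while 10 of 12 paraspeckle and 9 of 10 nuclear speckle proteins were lower in the libraries labelled ACLY. Of all genes 18.9% passed higher and 19.1% lower in that comparison. The interaction over the lines passed for both RNAs (edgeR adjusted p = 1.38e-07 for NEAT1 and 8.99e-13 for MALAT1).

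The 3 snoRNA hosts fell together in HN6 with the plasmid. SNHG1 had 95.7, 101 and 108 CPM with ACLY and 213, 249 and 248 CPM with the vector (log2 change -1.20 ± 0.06; edgeR adjusted p = 3.53e-18). SNHG12 had 24.03, 23.2 and 25.1 CPM with ACLY and 38.4, 51.9 and 46.5 CPM with the vector (-0.90 ± 0.0898; adjusted p = 1.45e-10 by edgeR). GAS5 had 62.3, 63.9 and 68.2 CPM with ACLY and 91.3, 111 and 112 CPM with the vector (-0.67 ± 0.0632; adjusted p = 3.74e-11 by edgeR). None of the 3 overlapped, and each was called lower under every alternative setting. The share of all genes without overlap is not given here for any comparison, so lack of overlap sets no member apart. Of 25 other hosts 13 fell and 4 rose, with a median log2 change of -0.43, where 26.8% of all genes passed higher and 24.9% lower. The falls included SNHG4 (-1.71), at 11.9 ± 1.71 CPM with ACLY against 39.2 ± 0.866 CPM, and SNHG15 (-1.28), SNHG7 (-1.10) and SNHG17 (-1.07). Of 10 factors of nonsense-mediated decay 8 fell and 0 rose, UPF1, its central helicase, to 127 ± 5.67 CPM against 212 ± 4.5 CPM (edgeR adjusted p = 1.32e-13). SLC3A2, an amino acid transporter subunit whose gene starts 188 bases from SNHG1 on the other strand, also fell, to 241 ± 0.735 CPM against 393 ± 18.7 CPM (-0.69; adjusted p = 4.07e-08).

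In Cal27 SNHG12 was the one of the 3 that rose. It had 40.9, 44.05 and 47.6 CPM with ACLY and 18.5, 16.1 and 16.9 CPM with the vector (2.55-fold; edgeR adjusted p = 8.44e-15), without overlap. GAS5 did not pass (log2 0.08, edgeR adjusted p = 0.223). SNHG1 had -0.11 (adjusted p = 0.1) with TMM factors and was called lower with the Cal27 libraries alone (-0.14, adjusted p = 0.0102), with DESeq2 (-0.17, adjusted p = 0.0136) and with 3 other scalings, which shift the members by -0.06 to -0.15 on the log2 scale in this comparison, at -0.17 to -0.26 (adjusted p = 0.00035 to 0.0108). Of 25 other hosts 20 rose and 1 fell, where 34.2% of all genes passed higher and 29% lower, DANCR to 62.4 ± 0.59 CPM against 16.6 ± 0.556 CPM and SNHG14 to 25.6 ± 1.35 CPM against 0.187 ± 0.117 CPM. The part of the genes otherwise read in HN4 in these Cal27 host changes was not tested. Among the neighbours of SNHG12, RCC1, the exchange factor of the GTPase Ran, had 216 ± 5.29 CPM with ACLY and 118 ± 4.68 CPM with the vector in Cal27, and 201 ± 7.77 and 305 ± 3.8 CPM in HN6, higher and lower as SNHG12 was (edgeR adjusted p = 5.39e-17 and 1.12e-12). The other tested neighbours did not share both directions: TRNAU1AP and RAB42 fell in Cal27 and rose in HN6, and TAF12 did not pass in Cal27 (log2 0.12) and fell in HN6. In HN4 none of the 3 hosts passed. SNHG12 there stood at 21.997, 19.96 and 23.9 CPM in libraries labelled ACLY and 25.4, 26.5 and 25.5 CPM in those labelled vector (-0.22, edgeR adjusted p = 0.0698), and it was called without the library of low mitochondrial share (-0.28 with adjusted p = 0.0203) and with no filter (-0.24, adjusted p = 0.0386). SNHG12, SNHG1 and GAS5 all had a response that differed among the lines (edgeR interaction, adjusted p = 1.69e-16, 1.95e-14 and 6.3e-10).

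The promoter of SNHG12 is printed because SNHG12 moved most of the 3 member hosts in Cal27. It spans 250 bases before to 50 after the RefSeq start (GRCh38.p14, minus strand), with the 1 match to the motifs searched in capitals.
SNHG12, chr1:28581824-28582123: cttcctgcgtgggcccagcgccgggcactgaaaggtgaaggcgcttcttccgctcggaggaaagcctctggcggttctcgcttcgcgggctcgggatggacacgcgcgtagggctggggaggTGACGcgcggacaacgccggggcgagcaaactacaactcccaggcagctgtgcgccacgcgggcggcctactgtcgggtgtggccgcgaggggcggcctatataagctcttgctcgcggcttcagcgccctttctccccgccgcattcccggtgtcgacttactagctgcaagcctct
The motifs, searched on either strand, were the hypoxia response core (ACGTG), the E-box that contains it (CACGTG), the AP-1 site (TGACTCA) and a core of the cAMP response element (TGACG). RefSeq windows of 6 members were searched, and MALAT1 had 2. PVT1 was left out of the search, so nothing is said of its promoter. TGACG matched once each in SNHG12, MIR31HG and 1 window of MALAT1, and 24.6% of all 35116 windows hold it. The hypoxia core, the E-box and the AP-1 site had no match in the windows of these members and occur in 21.4%, 7.26% and 4.95% of all windows. A match is a run of letters and was not tested for binding.

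**Figure D3:**
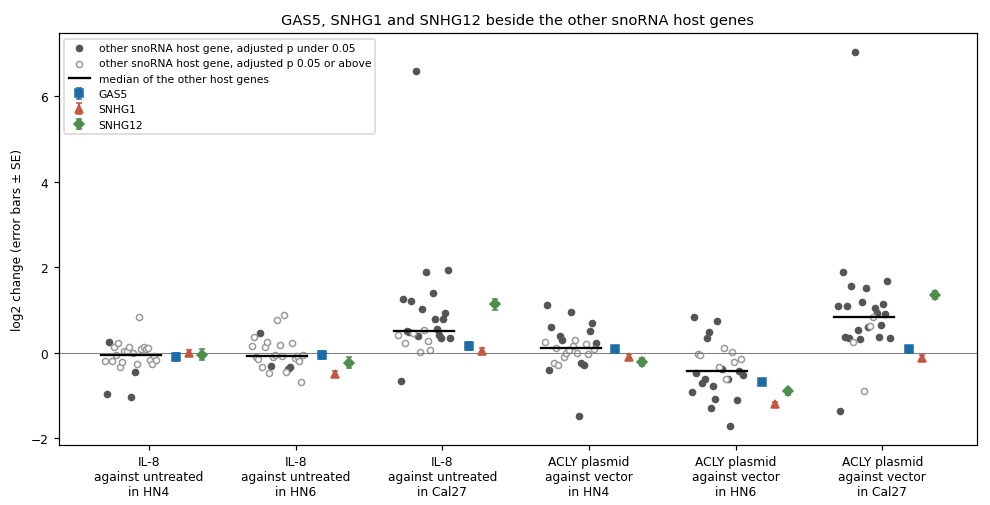
Fitted log2 change of GAS5, SNHG1 and SNHG12 (coloured, with SE) beside 25 other snoRNA host genes (grey, filled where the edgeR adjusted p was under 0.05; black line, their median) in the 6 treatment comparisons. All 3 members lie below 0 in HN6 with the ACLY plasmid, and in Cal27 SNHG12 alone of the 3 lies with the many hosts above 0.

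UCA1 had the largest rise of any member in HN6. It stood at 444, 441 and 425 CPM with ACLY and 172, 176 and 169 CPM with the vector (2.56-fold; edgeR adjusted p = 3.94e-06), and the HN6 libraries with ACLY held the highest UCA1 levels of all 36. In Cal27 it stayed within the spread (log2 0.05, edgeR adjusted p = 0.812). HN4 libraries labelled ACLY had 261, 286 and 162 CPM and those labelled vector 313, 319.5 and 313 CPM, with the library of low mitochondrial share the lowest. That fall (-0.39, edgeR adjusted p = 0.049) was -0.18 with adjusted p = 0.000965 by edgeR without the library, and it was not called with other scalings (adjusted p = 0.0518 to 0.111), with no filter (0.0701), with the HN4 libraries alone (0.238) or without any 1 vector library (0.0941 to 0.108). The interaction passed (edgeR adjusted p = 1.39e-05). OR10H1, an olfactory receptor gene 12542 bases from UCA1, had 1.6 ± 0.211 CPM in HN6 with ACLY and 0.268 ± 0.176 CPM with the vector. It passed the filter on low counts through HN6 with ACLY, the group where it is high. Its test there supports nothing and is not given.

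HOTAIR rose in HN6, to 1.89, 1.43 and 1.94 CPM with ACLY against 0.806, 0.799 and 0.801 CPM with the vector (2.2-fold; edgeR adjusted p = 0.0031). In HN4 it was 3.83, 4.21 and 3.71 CPM in libraries labelled ACLY and 1.37, 3.34 and 2.85 CPM in those labelled vector (1.56-fold; edgeR adjusted p = 0.0328), and the call was lost without vector replicate 1, the lowest library (log2 0.36, adjusted p = 0.255), without ACLY replicate 1 or 2 (adjusted p = 0.0584 and 0.0908), with no filter (0.0547) and with the HN4 libraries alone (0.0797). In Cal27 the change did not pass (0.50, edgeR adjusted p = 0.0943), but did with all 36 libraries in 1 fit (0.0485) and without vector replicate 1 (0.0378). HOTAIR was the 1 tested member whose response to the plasmid was not shown to differ among lines (adjusted p = 0.344). Of its 8 tested HOXC neighbours 5 rose in Cal27, HOXC10 to 21.8 ± 1.45 CPM against 10.97 ± 0.776 CPM, and 2 rose in HN6, HOXC13 to 6.25 ± 0.259 CPM against 3.23 ± 0.225 CPM. HOXC10 and HOTAIR were higher in untreated HN4 than in untreated Cal27. The part of the genes otherwise read in HN4 in the Cal27 changes of HOTAIR and its neighbours was not tested. Of 7 genes of Polycomb repressive complex 2, the complex HOTAIR was reported to bind, 5 fell and 2 rose in HN6, EZH2, its methyltransferase, to 50.6 ± 1.997 CPM against 84.4 ± 3.42 CPM. Of all genes 26.8% passed higher and 24.9% lower in HN6, and 34.2% higher and 29% lower in Cal27.

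MIR31HG rose in Cal27 with ACLY, to 5.2, 4.79 and 5.7 CPM against 1.93, 2.04 and 1.56 CPM with the vector (2.8-fold; edgeR adjusted p = 8.52e-07). These levels lie between those of the Cal27 vector group and the HN4 groups, as did those with IL-8. The part of the genes otherwise read in HN4 in either rise was not tested. The interaction passed (edgeR adjusted p = 1.61e-05). In HN6 it was near 0 in both groups, at 0.115, 0.881 and 0.458 CPM with ACLY and 0.69, 0.171 and 0.286 CPM with the vector. PVT1 fell in HN6, to 29.9, 28.8 and 28.1 CPM with ACLY against 30.8, 38.2 and 34.3 CPM with the vector (log2 -0.24, edgeR adjusted p = 0.0115), and the call was lost without vector replicate 2 (-0.17, adjusted p = 0.114) and with library size or upper quartile scaling (adjusted p = 0.0507 and 0.0745). PVT1 was higher in Cal27 (0.18, edgeR adjusted p = 0.0418), a call lost with each of the 3 other scalings (adjusted p = 0.183 to 0.739), with no filter, with all 36 libraries in 1 fit, with DESeq2 and in 5 of the 6 fits that left out a Cal27 library.

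**Figure D4:**
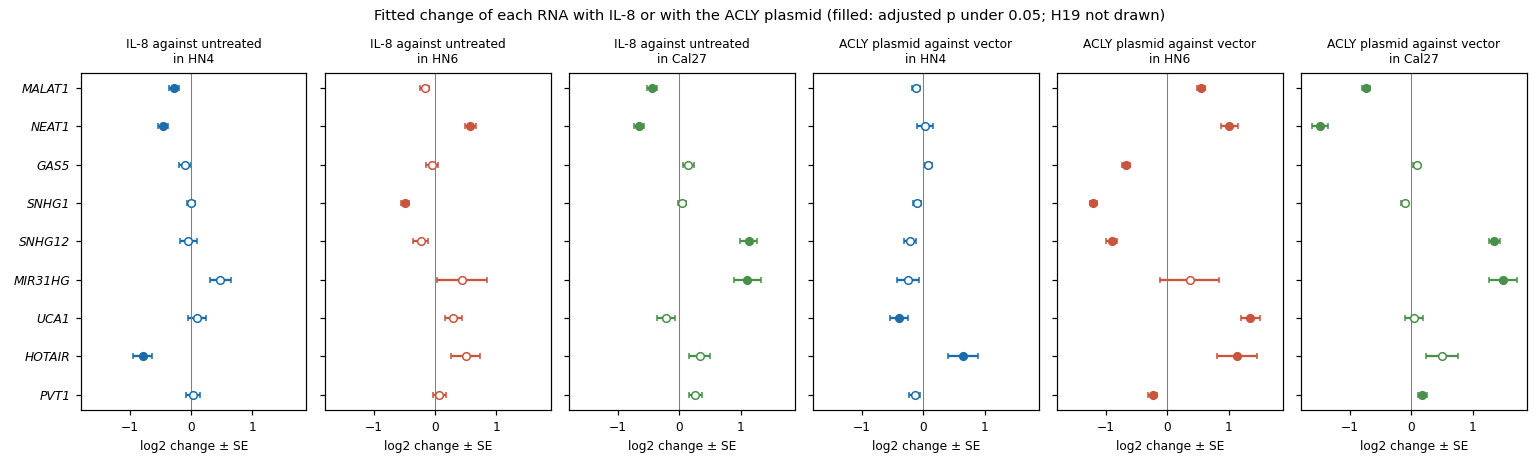
Fitted log2 change of 9 members with IL-8 against untreated and with the ACLY plasmid against vector in each line, with the SE as a bar, filled where the edgeR adjusted p was under 0.05. NEAT1 lies above 0 in HN6 in both experiments and below 0 in Cal27 in both.

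H19 was near the limit of detection and uneven between libraries. Its reads were 33, 24 and 26 in HN6 with IL-8 and 11, 4 and 7 in untreated HN6, so every library with IL-8 lay above every untreated one. Single libraries stood out elsewhere: untreated Cal27 had 29, 2 and 2 reads, and HN6 vector libraries 9, 41 and 7 against 4, 6 and 5 with ACLY. In HN4 no library had more than 9. H19 passed the filter on low counts in the IL-8 experiment through HN6 with IL-8, the group where it is high, so its test there supports nothing and is not given; it was not tested in the plasmid experiment.

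Over the 12 group means, on log2(CPM + 0.5), the likest protein-coding genes by Pearson correlation, of 10760 searched, were HLA-DMA for NEAT1 (r = 0.994), CDH5 for MALAT1 (0.984), KCMF1 for GAS5 (0.977), POLE3 for SNHG1 (0.987), CCNQ for SNHG12 (0.989), KCNAB2 for MIR31HG (0.997), PPP2R3A for UCA1 (0.939), SLC25A37 for HOTAIR (0.986) and TIMM23 for PVT1 (0.982). The 12 points share lines and controls, so these are descriptions of a pattern set mostly by the lines. The next genes for NEAT1 were CAT, the catalase, and HLA-DRA (0.985 each), and RPL4, a ribosomal protein, ranked 3 for GAS5 (0.957). Among members, MALAT1 with PVT1 and MIR31HG with HOTAIR had 0.87 each, and SNHG1 with HOTAIR -0.88. CDH5 is an endothelial marker, and the summed level of PECAM1, CDH5 and VWF went the way of MALAT1 in the plasmid comparisons of HN6 and Cal27, unlike with IL-8 in HN6 and HN4: it was 19.4 to 21.9 CPM in HN6 with ACLY against 10.1 to 12.4 with the vector, and 11.9 to 13.3 CPM in Cal27 with ACLY against 26.7 to 27.9 with the vector. All 3 of those markers rose in HN6 and 2 fell in Cal27, and their part in the MALAT1 changes was not tested. The fibroblast markers, mainly COL1A1, summed to 46.5 to 53.6 CPM in HN6 with ACLY against 15.9 to 19.3 with the vector, and to 6.24 to 7.91 CPM in Cal27 with ACLY against 20.3 to 21.2 with the vector, with DCN at 0 in 35 libraries. The squamous markers summed to 4131 to 4303 CPM in Cal27 with ACLY against 6753 to 7558 with the vector, 8 of 9 lower and 1 higher, and the part of either list in the changes of the members was not tested. Of all genes 26.8% passed higher and 24.9% lower in HN6 with ACLY, and 34.2% and 29% in Cal27.

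Other cancer-linked long noncoding RNAs, a list of 37 with 31 tested, moved in both directions with the plasmid. In HN6 with ACLY 16 rose and 4 fell (26.8% of all genes higher, 24.9% lower), and in Cal27 7 rose and 12 fell (34.2% and 29%). In HN4 13 were higher and 3 lower in libraries labelled ACLY (18.9% and 19.1% of all genes). Without the library of low mitochondrial share the HN4 counts were 10 and 1, where 37.4% of all genes passed in either direction. The 19 called in Cal27 are a share near that of all genes. MIR210HG, host of the hypoxia-induced miR-210, had 15.8 ± 0.897 CPM with ACLY and 0.897 ± 0.491 CPM with the vector in HN6 (edgeR adjusted p = 2.1e-17), and 14.02 ± 1.63 and 42.2 ± 3.12 CPM in Cal27 (adjusted p = 1.38e-12 by edgeR). LUCAT1, a stress-induced RNA, rose in HN6 to 45.4 ± 4.54 CPM against 14.5 ± 0.859 CPM (3.17-fold), and MIR17HG, host of the miR-17 cluster, fell there (-2.05, edgeR adjusted p = 1.98e-08). With IL-8, 1 rose and 6 fell in HN4, 5 rose and 0 fell in HN6, and 5 rose and 7 fell in Cal27, where 14%, 15.4% and 39.4% of all genes passed, so the shares in HN6 and Cal27 lie near those of all genes. Without Cal27 IL-8 replicate 3 the counts were 2 and 11 in HN4, 7 and 3 in HN6, and 5 and 6 in Cal27. In that setting 30.3%, 32.7% and 41.7% of all genes passed in either direction. LUCAT1 fell in HN4, to 24.7 ± 1.53 CPM against 49.4 ± 1.45 CPM, and rose in HN6, to 21.2 ± 0.968 CPM against 13.3 ± 0.825 CPM (SD, n = 3; edgeR adjusted p = 0.000164 and 0.00583), the directions of NEAT1 in those lines.

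Over both experiments, 4 of 10 members responded differently to IL-8 among the lines (NEAT1, SNHG1, SNHG12 and HOTAIR), where 40.2% of all genes did, and 8 of 9 to the plasmid, where 70.9% did. Without Cal27 IL-8 replicate 3 the first count was 7. More of all genes passed with IL-8 in that setting too, 30.3% in HN4, 32.7% in HN6 and 41.7% in Cal27. With all libraries these shares were 14%, 15.4% and 39.4%. The share of all genes whose response differed is not given for that setting, so the 7 does not set the members apart.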

How the data were processed

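RNA-seq of 36 libraries was deposited by the authors as a table of raw counts per gene. Per the submitters' processing notes, CASAVA, HISAT2 2.0.5, featureCounts 1.5.0-p3, DESeq2 and hg38 were used; strand setting, annotation release and treatment of multi-mapped reads are not given in the sources used here. All 58735 genes have the start and end of GENCODE 29.

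The counts were tested with edgeR 4.0.16 (R 4.3.3, limma 3.58.1; quasi-likelihood, TMM factors, filterByExpr with a minimum count of 10 and total of 15) over the 18 libraries of each experiment (a mean for every group, 12 residual degrees of freedom). P-values were adjusted by Benjamini-Hochberg and called under 0.05. Tests were two-sided. Responses among lines were compared by an interaction F test with 2 degrees of freedom. Levels are CPM with TMM factors over 36 libraries. Library totals of 16570601 to 20232735 set the precision. Alternatives were other scalings, no filter, the replicate number as a block, all libraries in 1 fit, each line alone, DESeq2 1.42.0 and leaving out each library. Counts over the gene lists were also made without the library of low mitochondrial share of each experiment, an alternative chosen after seeing the data.

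The members and gene lists were chosen with earlier results of these data known. Named genes are the members, up to 4 called genes of each list by size of change, protein-coding genes within 50 kb of a member, and the 3 genes likest each member, with correlations on log2(CPM + 0.5).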

Additional observations from a re-analysis of the deposited data

Results flagged for a closer look

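The response to IL-8 differed among HN4, HN6 and Cal27, by the edgeR interaction test with adjustment over all genes, for NEAT1 (adjusted p = 5.98e-07), SNHG12 (adjusted p = 3.11e-05), SNHG1 (adjusted p = 0.000242) and HOTAIR (adjusted p = 0.000887). NEAT1 fell in HN4 and Cal27 and rose in HN6. SNHG12 rose in Cal27, SNHG1 fell in HN6, and HOTAIR fell in HN4. The Cal27 arm of this test uses IL-8 libraries in which genes otherwise read in HN4 were present. Their part in these differences was not tested.

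The response to the ACLY plasmid differed among the lines for SNHG12 (edgeR adjusted p = 1.69e-16), SNHG1 (1.95e-14), MALAT1 (8.99e-13), GAS5 (6.3e-10), NEAT1 (1.38e-07), UCA1 (1.39e-05), MIR31HG (1.61e-05) and PVT1 (0.00308). NEAT1 and MALAT1 rose in HN6 and fell in Cal27, and SNHG12 fell in HN6 and rose in Cal27. The HN4 arm of this test uses the labels that the ACLY reads go against, and the Cal27 arm the libraries in which genes otherwise read in HN4 were present; the part of either in these differences was not tested.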

How the results depend on the processing

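No call of a member changed direction under any alternative. With the 6 libraries of the line alone, 5 members were called with IL-8 in HN4 (3 in the fit of 18 libraries) and 6 in HN6 (2). The H19 call among those 6 supports nothing. The count was 0 between HN4 libraries labelled ACLY and vector (2). That last count was 1 with DESeq2 size factors, with library size alone, with upper quartile factors and with no filter, and 0 to 3 when 1 library was left out. When 1 library was left out, 2 to 5 members were called with IL-8 in HN6 and 4 to 7 responses to IL-8 differed among lines, the highest count of each without Cal27 IL-8 replicate 3. Without that library 32.7% of all genes passed with IL-8 in HN6, against 15.4% with it. Of the tests of single members, 2023 kept their side of the threshold, 43 passed only under an alternative and 39 lost the call. Upper quartile factors shifted the members by -0.148 on the log2 scale for the ACLY plasmid in Cal27 and by 0.176 between the vector libraries of Cal27 and HN4.

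Same-numbered libraries did not deviate together (correlations of -0.149 to 0.141), so the replicate number pairs nothing. With it as a replicate block 4 members were called for the plasmid in Cal27 in place of 5 (PVT1, edgeR adjusted p = 0.051), and every other count was the same: 3, 2 and 4 with IL-8 in HN4, HN6 and Cal27, 2 and 8 with the plasmid in HN4 and HN6, 8, 9 and 7 between untreated lines, 8, 8 and 7 between vector lines, and 4 and 8 differing responses. At this depth H19 is at or near the limit that a count of 0 allows in most groups.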
